A study of Saccharomyces cerevisiae with 4 samples.

Results

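Fatty acid beta-oxidation and the carnitine shuttle are described here through 10 genes of budding yeast: POX1, FOX2, POT1, FAA2, PXA1, CAT2, YAT1, YAT2, CRC1 and PEX11. They were taken by gene symbol from the probe annotation. Each of the 10 has 1 probe set, and 5430 genes were compared in all. In budding yeast fatty acids are oxidized in peroxisomes. The pathway is known to be repressed by glucose and induced by oleate, through the transcription factors Oaf1, Pip2 and Adr1. Its product, acetyl-CoA, leaves the peroxisome either through the glyoxylate cycle or as acetylcarnitine, which carries the acetyl group into mitochondria. Yeast takes up the carnitine for this shuttle from its medium.

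The study asked which genes differ between yeast lacking HSP30 and its parent. Log-phase cultures in the rich medium YPD gave 4 Affymetrix arrays, 1 for each of 4 groups, and no group has a replicate. The parent BY4741 carries his3Δ1, leu2Δ0, met15Δ0 and ura3Δ0 in a MATa background, and the second strain is BY4741 with hsp30Δ::kanMX, so these auxotrophies are shared by all 4 groups. Each strain was sampled at 30 °C and after 30 min at 40 °C. Whether the deletion strain is 1 clone is not stated in the labels. The array reads RNA of a whole culture, so more transcript in every cell and more cells with the transcript cannot be told apart.

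HSP30, the deleted gene, read 15.51 (30 °C) and 14.18 (40 °C) in BY4741 against 15.18 and 15.91 under the hsp30Δ label, in log2 units. These values go against the label of the second strain, unless the HSP30 probes lie outside the deleted part, which was not checked here. Every strain direction below is therefore that of the array's label. Between 40 °C and 30 °C HSP30 itself differed by -1.34 log2 units in BY4741 and by 0.73 under the hsp30Δ label. Temperatures are likewise those of the labels. No set of heat-induced genes was read to check them, so each heat difference below is one between temperature labels. MET17, the gene of the met15Δ0 allele, was at the lowest value of the table on every array. Array medians lay between 11.13 and 11.19. Over 5430 genes BY4741 30 °C had Pearson correlations of 0.787 to 0.849 with the other 3 arrays, which had 0.937 to 0.980 among themselves. The array BY4741 30 °C thus stood apart, and it enters the heat comparison in BY4741 and the strain comparison at 30 °C. Its part in the differences below was not tested.

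On BY4741 30 °C 9 of the 10 genes had their lowest value, against 43.2% of all genes. The members' median was 9.21 log2 units there, 11.28 on BY4741 40 °C, 11.34 on the array labelled hsp30Δ 30 °C and 10.63 on the array labelled hsp30Δ 40 °C. The medians of all genes on these arrays lay between 11.19 and 11.25. PEX11 was the exception, with its highest value on BY4741 30 °C and its lowest on the array labelled hsp30Δ 40 °C. Of the other 9, FOX2, POT1, FAA2 and PXA1 were highest on BY4741 40 °C, and POX1, CAT2, YAT1, YAT2 and CRC1 on the array labelled hsp30Δ 30 °C.

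**Figure D1:**
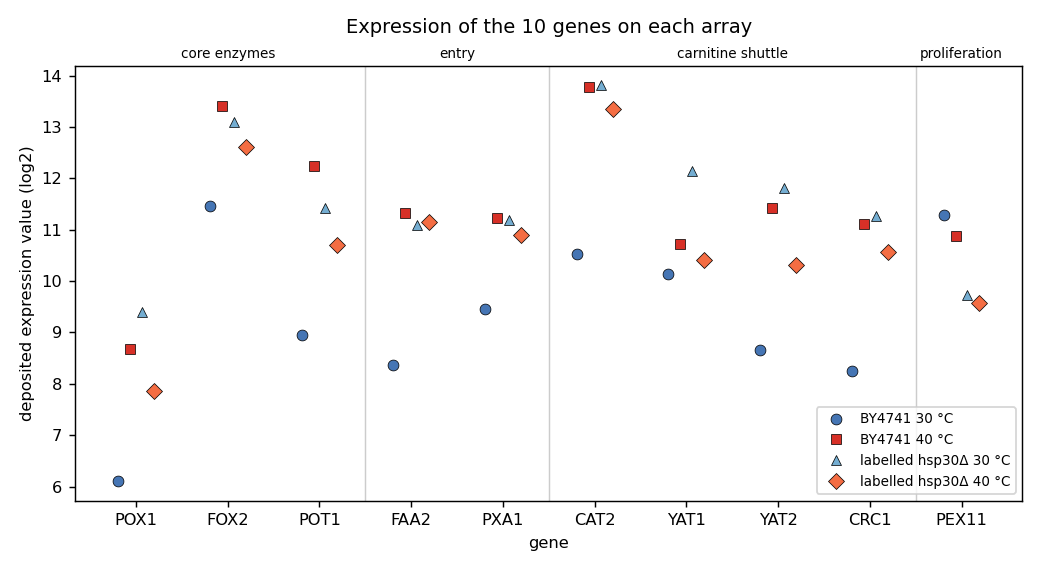
Deposited log2 expression values (vertical axis) of the 10 genes (horizontal axis, grouped by role), with 1 point for each of the 4 arrays and no error bars because no group has a replicate. For 9 genes the BY4741 30 °C point is the lowest, while PEX11 is highest there, at 11.28; heights of different genes cannot be compared, since each is read by its own probe set.

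The 3 core enzymes act in sequence. POX1 (YGL205W) codes for acyl-CoA oxidase, the first and hydrogen peroxide-forming step. It read 6.11 on BY4741 30 °C, 8.68 on BY4741 40 °C, 9.39 on the array labelled hsp30Δ 30 °C and 7.86 on the array labelled hsp30Δ 40 °C. BY4741 30 °C was far below the others, and the unheated array of the second strain was above its heated one. Where a sentence below gives a pair of values for a strain label, the 30 °C array comes first and the 40 °C array second. FOX2 (YKR009C) codes for the multifunctional enzyme with hydratase and dehydrogenase activities. It read 11.46 and 13.41 in BY4741 against 13.10 and 12.61 under the hsp30Δ label. BY4741 30 °C was again the low array, and the other 3 spanned less than 1 log2 unit. POT1 (YIL160C) codes for 3-ketoacyl-CoA thiolase, which releases acetyl-CoA. It read 8.95 and 12.24 in BY4741 against 11.41 and 10.70 under the hsp30Δ label. Both arrays labelled hsp30Δ lay between the BY4741 arrays.

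The 2 entry genes bring substrates to the pathway. FAA2 (YER015W) codes for a peroxisomal acyl-CoA synthetase that activates medium-chain fatty acids. It read 8.36 and 11.33 in BY4741 against 11.08 and 11.14 under the hsp30Δ label. PXA1 (YPL147W) codes for one subunit of the ABC transporter that takes long-chain acyl groups into the peroxisome, and it read 9.46 and 11.22 in BY4741 against 11.18 and 10.90 under the hsp30Δ label. For both genes BY4741 30 °C was low and the other 3 arrays lay close together.

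The 4 carnitine genes include 3 carnitine acetyltransferases and 1 carrier. CAT2 (YML042W), the acetyltransferase of peroxisomes and mitochondria, read 10.53 and 13.78 in BY4741 against 13.81 and 13.35 under the hsp30Δ label. YAT2 (YER024W), a cytosolic acetyltransferase, read 8.67 and 11.42 in BY4741 against 11.81 and 10.32 under the hsp30Δ label. CRC1 (YOR100C), the acetylcarnitine carrier of the mitochondrial inner membrane, read 8.25 and 11.12 in BY4741 against 11.26 and 10.57 under the hsp30Δ label. In these 3 genes BY4741 30 °C was the low array, and the unheated array of the second strain read above BY4741 40 °C. YAT1 (YAR035W), the acetyltransferase on the outer face of mitochondria, had another pattern. It read 10.14 and 10.72 in BY4741 against 12.14 and 10.40 under the hsp30Δ label. The array labelled hsp30Δ 30 °C alone was high, and the other 3 lay within 0.57 of each other.

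PEX11 (YOL147C) codes for an abundant peroxisomal membrane protein that drives the elongation and proliferation of peroxisomes. It read 11.28 and 10.88 in BY4741 against 9.73 and 9.58 under the hsp30Δ label. Both arrays labelled hsp30Δ were below both BY4741 arrays, a split that none of the other 9 genes showed. Genes outside the 10 showed it too, and their share of all genes was not counted.

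Heat in BY4741 was the first comparison. With 1 array in each group it has no test, and genes at least 2-fold apart were counted. On BY4741 40 °C 8 of 10 members were at least 2-fold higher, against 18.9% of all genes, and 0 were at least 2-fold lower, against 18.8%. The members' median difference was 2.66 log2 units, beside 0.13 over all genes. POT1 was 9.77-fold higher, CAT2 9.52-fold, FAA2 7.84-fold and CRC1 7.30-fold. YAT2 (6.74-fold), POX1 (5.96-fold), FOX2 (3.85-fold) and PXA1 (3.39-fold) followed. YAT1 differed by 0.57 log2 units and PEX11 by -0.40, neither past 2-fold. The POT1 and CAT2 differences were each above those of 98.3% of genes, and that of PEX11 was above 32.3%.

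On the arrays labelled hsp30Δ the same temperature step gave lower values for 9 of 10 members, against 2639 of 5430 genes. At least 2-fold lower were 3 of 10, against 1.57% of all genes, and 0 were at least 2-fold higher, against 1.62%. YAT1 was 3.34-fold lower at 40 °C, POX1 2.88-fold and YAT2 2.82-fold. Their differences lay above those of only 0.239%, 0.460% and 0.516% of genes. POT1 differed by -0.72 log2 units, CRC1 by -0.69, FOX2 by -0.49, CAT2 by -0.46, PXA1 by -0.28 and PEX11 by -0.15. FAA2, the only member with a positive value, differed by 0.06. The members' median was -0.59, beside 0.01 over all genes. By role the median was -0.72 for the 3 core enzymes, -1.09 for the 4 carnitine genes and -0.11 for the 2 entry genes.

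These heat comparisons share no array. Members higher at 40 °C in BY4741 and lower at 40 °C under the hsp30Δ label numbered 8 of 10 at any size, against 30.3% of all genes: POX1, FOX2, POT1, PXA1, CAT2, YAT1, YAT2 and CRC1. Past 2-fold in both were 2 of 10, POX1 and YAT2, against 0.589% of all genes. The heat difference under the hsp30Δ label minus that in BY4741 was at least 2-fold negative for 9 of 10 members, against 22.6% of genes, and 0 were at least 2-fold positive, against 21.7%. It ran from -4.25 log2 units for YAT2 to -2.04 for PXA1 in these 9, and was 0.24 for PEX11. The members' median was -3.24, beside -0.13 over all genes. This quantity uses the 4 arrays once each and leaves no degree of freedom for a test.

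**Figure D2:**
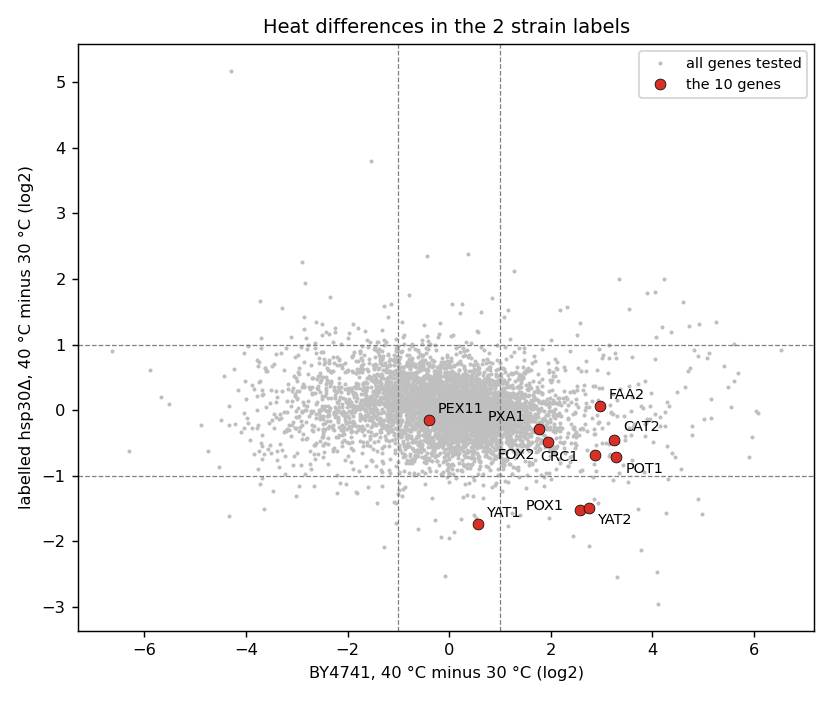
Heat difference (40 °C minus 30 °C, log2) in BY4741 on the horizontal axis against that on the arrays labelled hsp30Δ on the vertical axis, for all genes tested (grey) and the 10 genes (red, named), with dashed lines at 2-fold. POX1 and YAT2 lie beyond 2-fold upward in BY4741 and beyond 2-fold downward under the other label, YAT1 lies low at the centre, and PEX11 lies within the dashed lines on both axes.

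Between the strain labels at 30 °C, 9 of 10 members were at least 2-fold higher on the array labelled hsp30Δ, against 23.2% of all genes, and 1, PEX11, was at least 2-fold lower, against 21.4%. The members' median difference was 2.60 log2 units, beside 0.11 over all genes. CAT2 was 9.73-fold higher, POX1 9.72-fold, YAT2 8.83-fold, CRC1 8.06-fold and FAA2 6.61-fold. YAT1 was 3.99-fold higher. POT1 was higher by 2.47 log2 units, PXA1 by 1.72 and FOX2 by 1.63. PEX11 was 2.93-fold lower. Heat in BY4741 was measured from the same BY4741 30 °C array, so the 2 sets of values are not independent of each other.

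At 40 °C all 10 members read lower under the hsp30Δ label than in BY4741, as did 2694 of 5430 genes. The members' median was -0.68 log2 units, beside 0.00 over all genes. At least 2-fold lower were 3 of 10, against 3.59% of genes, and 0 were at least 2-fold higher, against 6.7%. POT1 was 2.90-fold lower, PEX11 2.47-fold and YAT2 2.15-fold. POX1 differed by -0.82 and FOX2 by -0.81, and POX1 would also pass 2-fold under quantile normalization, at -1.09. CRC1 differed by -0.55, CAT2 by -0.43, PXA1 by -0.32, YAT1 by -0.32 and FAA2 by -0.19. POT1 and YAT2 were thus at least 2-fold higher at 30 °C and at least 2-fold lower at 40 °C on the arrays labelled hsp30Δ, as were 0.681% of all genes. PEX11 was past 2-fold downward at both temperatures, against 21.4% of all genes at 30 °C and 3.59% at 40 °C. The share of all genes past it at both was not counted.

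**Figure D3:**
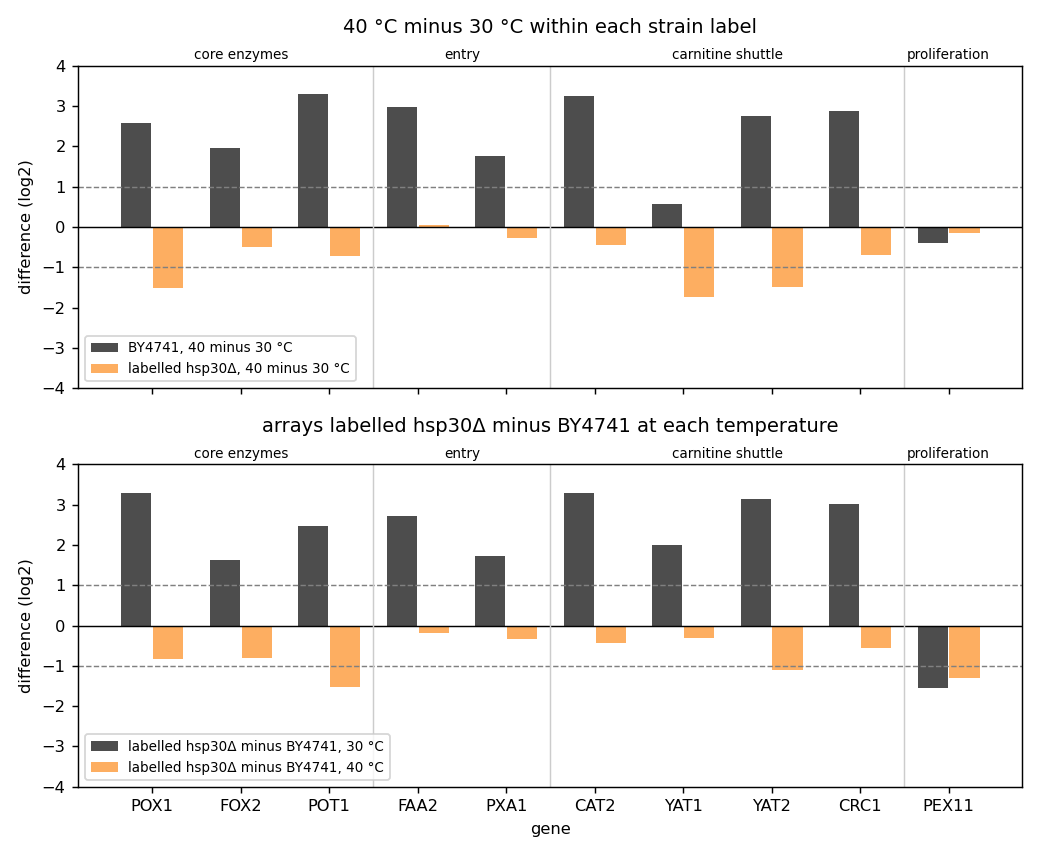
Log2 differences (vertical axis) of the 10 genes (horizontal axis, grouped by role): above, 40 °C minus 30 °C within each strain label; below, arrays labelled hsp30Δ minus BY4741 at each temperature, with dashed lines at 2-fold. Each bar is the difference of 2 single arrays, so there are no error bars; PEX11 has negative bars in all 4 comparisons, and the other 9 genes have positive bars in BY4741 heat and in the 30 °C strain comparison.

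The differences shared across arrays were tested by limma with strain label and temperature as additive terms on all 4 arrays, which leaves 1 residual degree of freedom. The fit looks for a difference shared by both levels of the other factor, and unequal differences add to its error. For temperature 0 of 10 members had a Benjamini-Hochberg adjusted p under 0.05, as did 0% of all genes, and 0 members but 2.01% of genes had an unadjusted p under 0.05. For the strain label 0 of 10 members passed, against 0.203% of genes. PEX11 was the 1 member with an unadjusted limma p under 0.05 (0.0403), against 8.2% of genes. With a trend in the variance prior this p was 0.0545. Its estimate was -1.43 log2 units with a standard error of 0.57 and an adjusted p of 0.595, lower on the array labelled hsp30Δ at both temperatures. CAT2 had an estimate of 1.43 with a standard error of 0.90, since it was higher by 3.28 at 30 °C and lower by 0.43 at 40 °C. Its adjusted limma p was 0.688.

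The other beta-oxidation genes, a list of 15, were more mixed than the 10. At 40 °C in BY4741 7 of 15 were higher by that bound, against 18.9% of all genes, and 3 were lower, near the 18.8% of all genes. The list median was 0.86 log2 units. CTA1, the peroxisomal catalase that removes hydrogen peroxide made by Pox1, read 6.93 and 11.38 in BY4741 against 10.84 and 10.11 under the hsp30Δ label. IDP3, which supplies peroxisomal NADPH for unsaturated fatty acids, read 9.43 and 12.12 in BY4741 against 11.74 and 11.52 under the hsp30Δ label. Both had their low value on BY4741 30 °C, as most of the 10 did. PXA2, the partner subunit of Pxa1, differed by 1.37 in BY4741 heat and by 1.37 between the labels at 30 °C, against 1.76 and 1.72 for PXA1. AGP2, the plasma membrane permease through which carnitine enters, differed by 1.11 and 1.09.

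Among enzymes for unsaturated chains and acyl-CoA release, some were high on 1 array only. ECI1, the enoyl-CoA isomerase, read 10.69 and 12.18 in BY4741 against 10.43 and 10.66 under the hsp30Δ label, so that it was high on BY4741 40 °C alone. TES1, a peroxisomal thioesterase, read 11.16 and 12.22 in BY4741 against 10.78 and 11.19 under the hsp30Δ label, again high on BY4741 40 °C alone. SPS19, the dienoyl-CoA reductase, differed by 0.86 in BY4741 heat, and DCI1 by 1.33. The 3 genes at least 2-fold lower in BY4741 heat were FAA4, an acyl-CoA synthetase for long chains (-2.70), FAT1, for very long chains (-2.01), and ANT1, the peroxisomal adenine nucleotide carrier (-1.11). The same genes were the 3 at least 2-fold lower at 30 °C on the array labelled hsp30Δ, near the 21.4% of all genes, in a comparison with the same BY4741 30 °C array. FAA1 (0.40), PCS60 (0.37), MDH3 (0.42) and LPX1 (0.26) were within 2-fold in BY4741 heat.

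At 30 °C 6 of the 15 were at least 2-fold higher on the array labelled hsp30Δ, against 23.2% of all genes, with a list median of 0.41. LPX1, a peroxisomal lipase, was among them at 1.41. Under the hsp30Δ label 0 of the 15 were 2-fold apart between temperatures in either direction (median 0.05, lowest LPX1 at -0.76, highest ANT1 at 0.76). Of all genes 1.62% were higher and 1.57% lower by that bound. At 40 °C 3 were at least 2-fold lower on the array labelled hsp30Δ, against 3.59% of all genes: ECI1 (-1.52), CTA1 (-1.27) and TES1 (-1.04), with 1 higher, FAT1 (1.18), near the 6.7% of all genes. The list median was -0.27.

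Of the 7 regulator genes 3 were at least 2-fold higher on BY4741 40 °C and 0 lower (median 0.51), against 18.9% and 18.8% of all genes. CAT8, an activator of gluconeogenic genes, read 10.42 and 14.01 in BY4741 against 14.27 and 13.89 under the hsp30Δ label. ADR1, an activator of peroxisomal genes, read 10.73 and 12.85 in BY4741 against 13.35 and 13.07 under the hsp30Δ label. MIG1, a glucose repressor, read 11.14 and 12.42, then 12.67 and 12.86. These 3 were low on BY4741 30 °C and were also the 3 regulators past 2-fold between the labels at 30 °C, all upward, against 23.2% of all genes. The genes of the oleate factors differed less: OAF1 by 0.51 and PIP2 by 0.36 in BY4741 heat, and by 0.59 and 0.66 between the labels at 30 °C. OAF3, a repressor in the oleate response, differed by 0.36 and 0.19, and SNF1, the kinase needed to relieve glucose repression, by -0.09 and 0.18. For heat under the hsp30Δ label and between the labels at 40 °C 0 of 7 were 2-fold apart. Of all genes 1.62% were higher and 1.57% lower in the former, and 6.7% and 3.59% in the latter.

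The glyoxylate cycle and acetate activation genes, a list of 4, were read in the same way. MLS1, malate synthase, read 9.54 and 12.85 in BY4741 against 12.84 and 10.29 under the hsp30Δ label. ICL1, isocitrate lyase, read 9.37 and 13.09 in BY4741 against 12.77 and 11.27 under the hsp30Δ label. ACS1, an acetyl-CoA synthetase, differed by 2.10 in BY4741 heat and by -0.59 under the other label. CIT2, the peroxisomal citrate synthase, differed by 0.84 and -1.18. In BY4741 heat 3 of 4 were at least 2-fold higher (median 2.70), against 18.9% of all genes, and under the hsp30Δ label 3 of 4 were at least 2-fold lower (median -1.34), against 1.57%. Between the labels 3 of 4 were at least 2-fold higher at 30 °C (median 2.37), against 23.2% of all genes, and 4 of 4 at least 2-fold lower at 40 °C (median -1.58), against 3.59%.

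The triacylglycerol lipases TGL3, TGL4 and TGL5, which free fatty acids from lipid droplets, differed by 0.24 to 0.30 in BY4741 heat. Past 2-fold were 0 of 3, against 18.9% of all genes higher and 18.8% lower. At 30 °C TGL3 (1.11) and TGL5 (1.05) were at least 2-fold higher on the array labelled hsp30Δ, as were 23.2% of all genes, and TGL4 differed by 0.38. For heat under the hsp30Δ label 0 of 3 were 2-fold apart, against 1.62% of all genes higher and 1.57% lower. Between the labels at 40 °C 0 of 3 were, against 6.7% and 3.59%.

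Peroxins build and divide the peroxisome, and 26 of these genes were read beside PEX11. In BY4741 heat 11 of 26 were at least 2-fold higher and 0 lower (median 0.97), against 18.9% and 18.8% of all genes. PEX18 (2.84), PEX30 (1.86) and INP1 (1.73) were highest, and PEX31 (-0.49), PEX25 (-0.12) and PEX6 (0.12) lowest. PEX18, whose product helps import proteins of the thiolase type of targeting signal, read 8.55 and 11.39 in BY4741 against 10.89 and 9.87 under the hsp30Δ label. It was low on BY4741 30 °C. PEX11, at -0.40 in this comparison, lay below every peroxin but PEX31. PEX25 and PEX27, the relatives of PEX11 in peroxisome proliferation, differed by -0.12 and 1.41.

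At 30 °C 11 of 26 peroxins were at least 2-fold higher on the array labelled hsp30Δ and 0 lower (median 0.84), against 23.2% and 21.4% of all genes. PEX18 (2.34), PEX21 (1.98) and INP2 (1.61) were highest, and PEX31 (-0.89), PEX17 (-0.60) and PEX8 (-0.40) lowest, all above the -1.55 of PEX11. Under the hsp30Δ label 1 of 26 was at least 2-fold lower at 40 °C, PEX18 (-1.02), and 0 were higher. Of all genes 1.57% were lower and 1.62% higher by that bound. PEX21 (-0.87) and PEX22 (-0.83) came next, and PEX17 (0.53), PEX27 (0.42) and PEX8 (0.37) were highest, with a median of -0.17. Between the labels at 40 °C 2 of 26 were at least 2-fold lower, PEX18 (-1.51) and PEX17 (-1.07), and 0 higher, against 3.59% and 6.7% of all genes. PEX14 (-0.87) was the next lowest, INP2 (0.63), PEX6 (0.16) and PEX34 (0.05) were highest, and the median was -0.25. With limma, 0 genes of these 5 lists passed for temperature or strain label after adjustment over all genes, and 0 had an unadjusted p under 0.05.

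**Figure D4:**
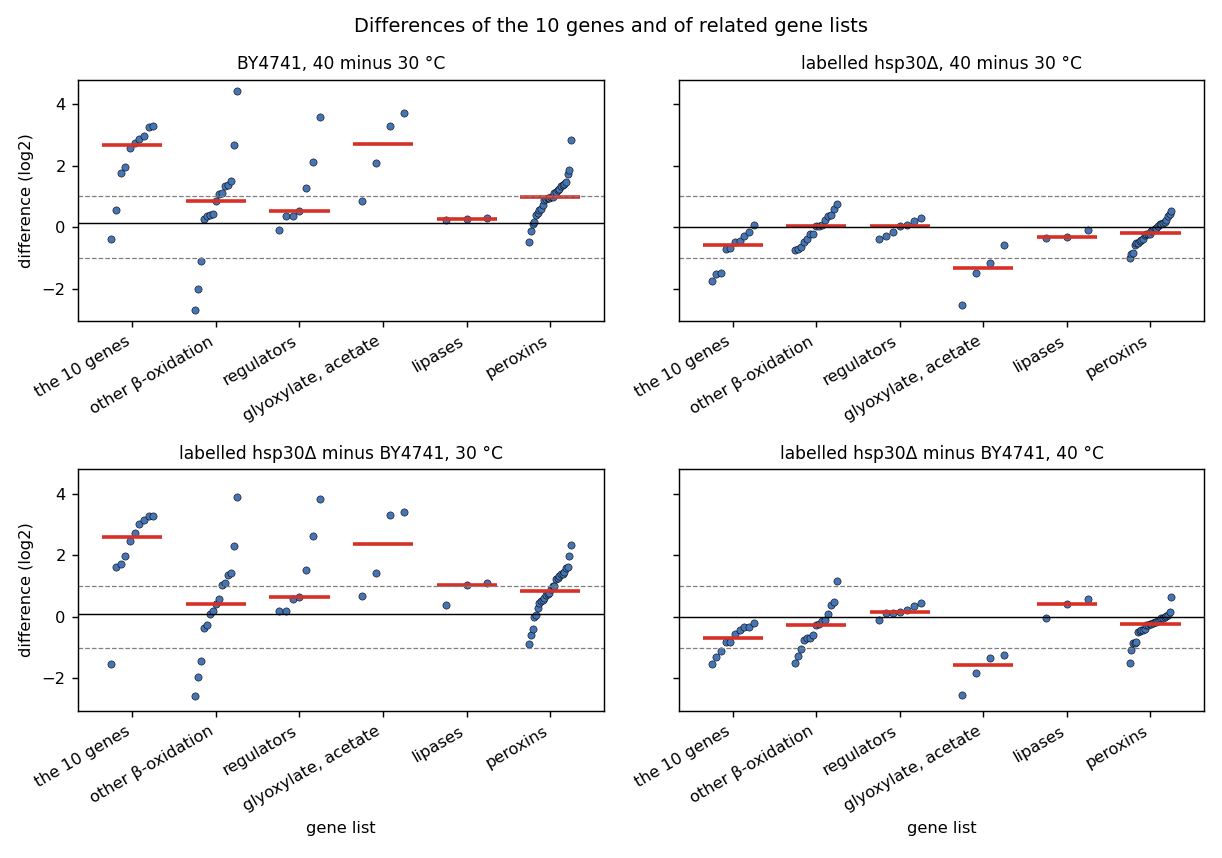
Log2 differences (vertical axis) of single genes (points) in the 10 genes and 5 related lists (horizontal axis), with list medians (red bars), the median of all genes (black line) and dashed lines at 2-fold, in 1 panel per comparison. The 10 genes and the glyoxylate and acetate list have their medians past 2-fold upward in BY4741 heat (2.66 and 2.70) and in the 30 °C strain comparison (2.60 and 2.37), and below the median of all genes in the other panels.

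Likeness was measured as the Euclidean distance between mean-centred log2 values over the 4 arrays, a description that rests on 4 points. The non-member genes nearest to POX1 were NCE103 (0.452), HEF3 (0.456) and YGR067C (0.627), while the nearest member, YAT2, was closer at 0.247. Nearest to FOX2 were SDH6 (0.103), NGL3 (0.121) and DAL2 (0.141), ahead of its nearest member PXA1 (0.347). Nearest to POT1 were SIP18 (0.331), PEX18 (0.387) and AGX1 (0.387), ahead of its nearest member CRC1 (0.822). Far more non-members than members were searched, so a nearer non-member is likely from the numbers searched alone. PEX11 was the farthest member from each of the 3, at 2.49 to 3.53.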

How the data were processed

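The deposited table gives log2 expression values, normalized by the authors, for 5802 probe sets on 4 Affymetrix arrays, with 0 columns from other samples. GCRMA and MAS5 were used, per the submitters' processing notes, with no versions, roles or order given. Probe sets with a budding yeast gene in the probe annotation (5483) gave 5436 genes, taking the probe set of highest mean where a gene had several. Values were floored at 1.96, the 95th percentile of 32 fission yeast probe sets (median over arrays), and 5430 genes above it on at least 1 array were compared. With 1 array a group, differences have no test, and precision is limited by the number of arrays. Genes were called at 2-fold. limma 3.58.1 (R 4.3.3) was fitted to unfloored values of all 5430 genes with 3 parameters, lmFit and eBayes, and adjusted by Benjamini-Hochberg. Alternatives covered normalization, floor, probe set choice, fold threshold, filter and variance prior. Named genes are the 10 members, the genes of 4 related lists, the 3 highest and 3 lowest peroxins of each comparison, the 3 nearest genes to POX1, FOX2 and POT1, and HSP30 and MET17; PEX25 and PEX27 were added for their relation to PEX11 after values were seen. The members and lists were chosen with earlier results of these data known. The genome build is not given in the sources used here, so no coordinates or sequences are given.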

Additional observations from a re-analysis of the deposited data

Results flagged for a closer look

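POX1 and YAT2 were at least 2-fold higher at 40 °C in BY4741 and at least 2-fold lower at 40 °C on the arrays labelled hsp30Δ. The second difference minus the first was -4.10 log2 units for POX1 and -4.25 for YAT2. POT1 and YAT2 were at least 2-fold higher on the array labelled hsp30Δ at 30 °C and at least 2-fold lower at 40 °C. The difference at 40 °C minus that at 30 °C was -4.0 for POT1 and -4.25 for YAT2, which is the same quantity for YAT2 in both cases. Each direction rests on 2 single arrays, and these differences between groups were not tested. All 4 values include BY4741 30 °C, the array that stood apart from the other 3 over all genes.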

How the results depend on the processing

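Counts of members past 2-fold and the members' medians, in the 4 comparisons and in the difference between heat responses, were the same or close under median centring, no floor, a floor at the highest fission yeast probe set, the mean over probe sets, and only probe sets without a suffix for shared sequence. Close means within 1.5 times for a count and 0.25 log2 units for a difference. Of these settings only median centring could change a member's value, and it shifted each array by no more than 0.031. The others could not, since each member has 1 probe set, without such a suffix. The lowest member value, 6.11 for POX1 on BY4741 30 °C, also lay above both floors, at 1.96 and at most 2.84. Under quantile normalization the median for heat in BY4741 moved from 2.66 to 2.35, and of the 50 member differences 4 moved by over 0.25, all of POX1: 1.94 for heat in BY4741, 2.55 and -1.09 between the labels at 30 °C and 40 °C, and -3.64 for the difference of the heat responses. All genes were counted at 2-fold only, so member counts at 1.5-fold and 3-fold have no share of all genes beside them. At 1.5-fold, 5 members were lower for heat under the hsp30Δ label and 5 between the labels at 40 °C, in place of 3 each. At 3-fold these were 1 and 0, and 0 members were lower between the labels at 30 °C in place of 1, while the counts of 8 higher for heat in BY4741 and 9 higher between the labels at 30 °C stayed at 8 and 9. In limma 0 members passed for either term under every alternative, and 0 genes passed for temperature (109 at an unadjusted p under 0.05 as deposited). For the strain label 11 genes passed as deposited, 90 under quantile normalization, 3 under median centring and 0 with no filter on dim genes (284 genes up and 104 down by unadjusted p under 0.05). The cause was not tested. The unadjusted limma p of PEX11 for the strain label was 0.0545 with a variance trend. That of FAA2 for temperature was 0.0444 under quantile normalization. In that fit 69 of 5430 genes up and 152 down had an unadjusted limma p under 0.05. With 1 array in each group no paired analysis was possible, other than the additive fit itself. That fit compares temperatures within strain labels and strain labels within temperatures.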
